A study of Mus musculus with 24 samples.

Results

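The microRNA family of miR-195, miR-15 and miR-16 was followed along the mouse liver lobule through 5 mature forms, chosen by name: mmu-miR-15a-5p, mmu-miR-15b-5p, mmu-miR-16-5p, mmu-miR-195a-5p and mmu-miR-195a-3p, the opposite arm of the miR-195a precursor (named here mostly without the species prefix mmu). These are 5 of the 1881 mouse miRNAs on the array. miR-15a-5p, miR-15b-5p and miR-16-5p were detected on all 24 arrays and had no fitted change along the lobule that passed the test. miR-195a-5p was detected on 14 arrays and differed between mice in a test that did not pass without mouse 3 or with quantile normalization. Its detection moved with the brightness of the arrays. miR-195a-3p was detected on 8 arrays, 7 of them from zones 5 to 8. Its positive slope towards the portal side passed the test over all arrays, which it entered through those arrays, and did not pass without mouse 2 or with slide row as a term. With slide row as a term 0 of all 339 tested miRNAs passed.

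The 5p members of this family carry the same seed, the bases near the 5′ end that pair with target messenger RNAs, and are known for holding back the cell cycle through targets such as D-type cyclins, cyclin E1, CDK6 and CHEK1, and for lowering the survival factor BCL2. A precursor hairpin yields a 5p and a 3p arm, and usually 1 arm is kept as the guide while the other is degraded. In the liver the adult hepatocyte rarely divides and is often polyploid, which is the background against which the family has been studied there.

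The mature sequences are shown because the seed defines the family and because its members differ by few bases (RefSeq, GRCm38.p6, 5′ to 3′, capitals mark bases 2 to 8):
miR-15a-5p: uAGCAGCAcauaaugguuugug
miR-15b-5p: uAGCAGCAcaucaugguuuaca
miR-16-5p: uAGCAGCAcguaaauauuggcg
miR-195a-5p: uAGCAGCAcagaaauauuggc
miR-497a-5p: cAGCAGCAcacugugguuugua
miR-195a-3p: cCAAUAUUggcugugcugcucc
The first 4 and miR-497a-5p share 1 seed, and miR-195a-3p has another. Counting from 1 at the 5′ end with the base of miR-16-5p first, miR-195a-5p differs from miR-16-5p at G10A and U11G alone over the 21 bases they align. miR-15a-5p and miR-15b-5p differ at 4 of 22 bases, and miR-15b-5p and miR-16-5p at 8 of 22. miR-15a-5p lies at chr14:61632075-61632096 on the minus strand, with 117 bases between it and a copy of miR-16-5p at chr14:61631936-61631957, and both lie within the long non-coding RNA gene Dleu2. miR-15b-5p lies at chr3:69009775-69009796 on the plus strand, with 121 bases between it and the other copy of miR-16-5p at chr3:69009918-69009939, within Smc4, which codes for a condensin subunit. The array gives 1 value for miR-16-5p, so the share of each copy is not known. miR-195a-5p (chr11:70235062-70235082) and miR-195a-3p (chr11:70235100-70235121) lie on the plus strand of chromosome 11, and 310 bases separate miR-195a-5p from miR-497a-5p at chr11:70234730-70234751.

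Hepatocytes came from 3 male C57BL/6J mice aged 3 months, fed freely and with no treatment. Viable tetraploid cells without CD45 and CD31 were sorted by the surface proteins CD73, abundant around the central vein, and E-cadherin, abundant around the portal tract, into zones 1 (most pericentral) to 8 (most periportal), with 50000 cells per zone and mouse. Each of the 24 arrays held total RNA of 1 zone of 1 mouse, so a zone had 3 arrays and a mouse 8. The sort leaves out hepatocytes of other ploidy.

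The signal is Agilent's total signal per miRNA, scaled here so that the 198 miRNAs detected everywhere had the same 75th percentile on each array, and set back to intensity units ("scaled signal"). Between 248 and 368 miRNAs were detected per array, and the number of arrays limits the precision. Each mouse had a slide of its own, so mouse and slide cannot be told apart, and zones 1 to 4 and zones 5 to 8 lay in different slide rows on every slide, so zone and slide row cannot be told apart fully. All 5 hepatocyte miRNAs listed as markers, miR-122-5p among them, were detected on every array. None of 5 leukocyte and Kupffer cell, 5 stellate cell and fibroblast and 3 erythroid miRNAs was detected on any array. Of 5 epithelial miRNAs 1, miR-200b-3p, was detected, on 1 array, and of 2 endothelial miRNAs miR-126a-3p was detected on 16 arrays.

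mmu-miR-15a-5p, processed from the Dleu2 transcript together with miR-16-5p, was tightly grouped on the portal side and scattered on the central side. In mouse 1 its scaled signal from zone 1 to zone 8 was 242, 201, 157, 161, 172, 171, 182 and 156. In mouse 2 it was 130.4, 181, 170.2, 112, 166, 179, 176 and 176. In mouse 3 it was 264, 233, 242, 217, 159, 165, 193 and 186. Mouse 3 was the highest of the 3 mice in each of zones 1 to 4 and mouse 2 the lowest in zones 1, 2 and 4, while in zones 5 to 8 all 12 arrays lay between 156 and 193. Zone means ran from 212 ± 71.6 in zone 1 (SD, n = 3 for each zone) to 163 ± 52.4 in zone 4, and then from 166 ± 6.52 in zone 5 to 172 ± 15.2 in zone 8. With the zones ordered by level, no neighbours in that order differed by more than the larger of their SDs.

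mmu-miR-16-5p, the most widely expressed member of the family, ran close to miR-15a-5p. Its scaled signal from zone 1 to zone 8 was 197, 140.3, 133, 129.7, 144, 151, 141 and 127 in mouse 1. Mouse 2 gave 157, 178, 159.7, 101, 154, 150.5, 149.9 and 147. Mouse 3 gave 213, 199.7, 201, 185, 135, 141, 164 and 155. Zone 1 had the highest array of mice 1 and 3, and zone 2 that of mouse 2. Zone means were 189 ± 29.1, 173 ± 30.1, 165 ± 34.6 and 139 ± 42.9 in zones 1 to 4 and lay between 143 ± 14.4 (zone 8) and 152 ± 11.5 (zone 7) in zones 5 to 8. Neighbours in the order of these levels again lay within the larger of their SDs.

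mmu-miR-15b-5p, encoded within Smc4 with the other copy of miR-16-5p, gave a lower signal, which does not rank its amount against that of other miRNAs because the signal per molecule differs between probes. Across zones 1 to 8 mouse 1 had 54.1, 52.2, 42.1, 39.2, 50.5, 48.4, 51.5 and 46.6. The values of mouse 2 were 41.7, 72.1, 71.7, 43.5, 72.3, 56.8, 51.3 and 52.9, and those of mouse 3 were 54.8, 50.1, 55.6, 56.0, 44.3, 45.6, 51.7 and 53.3. The 3 arrays near 72 units were all from mouse 2, in zones 2, 3 and 5, and zone 4 of that mouse was low for all 3 miRNAs. Zone means lay between 46.2 ± 8.73 in zone 4 and 58.2 ± 12.2 in zone 2, with no neighbours in their order apart by more than the larger SD. The error that the files give for a single array was 7.11% (miR-15a-5p), 7.95% (miR-16-5p) and 7.60% (miR-15b-5p) of the signal at the median, well under the spread between mice in zones 1 to 4.

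**Figure D1:**
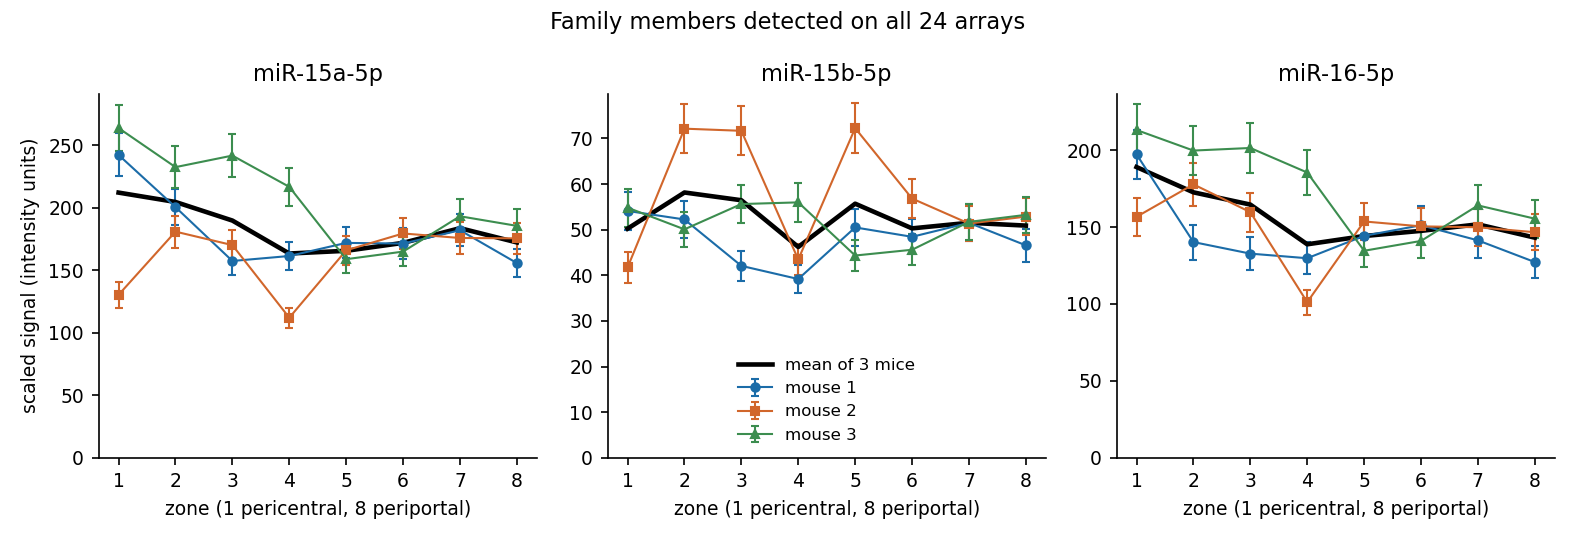
Scaled signal (intensity units) of miR-15a-5p, miR-15b-5p and miR-16-5p against zone for each mouse, with the error the files give for the array as bars and the mean of the 3 mice as a black line. For miR-15a-5p the mice lie between 156 and 193 in zones 5 to 8, against 112 to 264 in zones 1 to 4.

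The slope on the zone number asked whether a member rises or falls along the lobule (limma over 339 miRNAs detected on at least 6 arrays, Benjamini-Hochberg adjustment, threshold 0.05). A fitted change below is the slope taken over the whole axis, zone 8 relative to zone 1, in log2 units of the scaled signal. Of the 5 members 1 rose, miR-195a-3p, 0 fell and 4 did not pass, against 16.8% of all tested miRNAs called in either direction, 10.3% called as rising and 6.49% called as falling. miR-195a-3p entered the test through its arrays of zones 5 to 8, so this count is not support for a difference. The median fitted change was -0.22 over the members and -0.10 over all tested miRNAs. In bulk RNA of sorted cells, fewer cells of a type and less RNA per cell cannot be told apart.

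For miR-16-5p the fitted change was -0.33 ± 0.15 (SE), with a 95% interval of -0.64 to -0.02, limma adjusted p = 0.144 and the same sign in 3 of 3 mice. With mouse as a block the adjusted p was 0.0683, and miR-195a-3p was again the 1 member that rose, where 14.5% of all tested miRNAs rose. miR-15a-5p had -0.22 ± 0.18 (interval -0.59 to 0.14, limma adjusted p = 0.414) and miR-15b-5p -0.06 ± 0.16 (interval -0.39 to 0.26, adjusted p = 0.851). Both intervals cover changes of either sign, so they do not show that miR-15a-5p and miR-15b-5p are level along the axis. The sign of the miR-15a-5p value was positive without scaling (0.0047), and that of miR-15b-5p was positive without scaling (0.17) and with scaling to the summed signal (0.11).

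Fitted within each mouse, the change of miR-15a-5p was -0.39 ± 0.23 in mouse 1, 0.30 ± 0.23 in mouse 2 and -0.58 ± 0.23 in mouse 3 (SE), and the difference between the 3 slopes had limma adjusted p = 0.237 (unadjusted p = 0.0344). Over all miRNAs 0.885% had slopes that differed between mice. Without mouse 2 the fitted change of miR-15a-5p was -0.49 and passed (limma adjusted p = 0.0365), while it was -0.14 without mouse 1 (adjusted p = 0.770) and -0.046 without mouse 3 (adjusted p = 0.946). For miR-16-5p the values were -0.30, -0.13 and -0.55 in mice 1, 2 and 3, and for miR-15b-5p -0.05, -0.03 and -0.11.

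**Figure D2:**
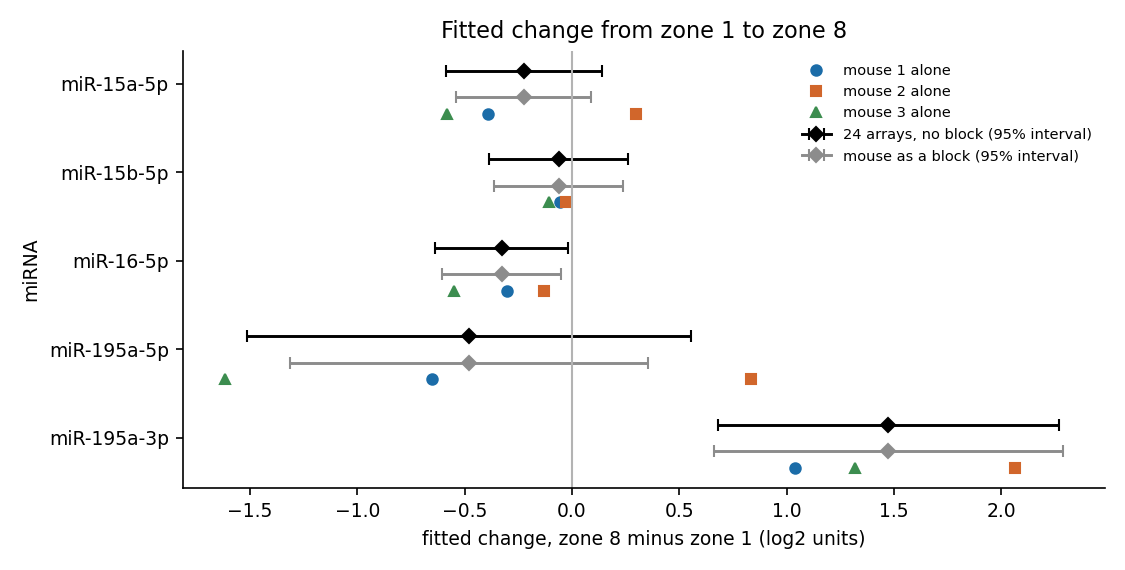
Fitted change from zone 1 to zone 8 (log2 units) of the 5 members, from all 24 arrays without a block (black) and with mouse as a block (grey), with 95% intervals, and from each mouse alone (coloured points). The intervals of miR-195a-3p lie above 0, that of miR-16-5p runs from -0.64 to -0.02 without a block, and mouse 2 stands apart for miR-15a-5p at 0.30.

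The ends of the axis were also compared directly. miR-16-5p had scaled signals of 127, 147 and 155 in zone 8 of mice 1, 2 and 3, against 197, 157 and 213 in zone 1. The nearest values of the 2 zones, 155 and 157, lay closer together than the error of a single array (7.95% of the signal at the median). The log2 difference of miR-16-5p, -0.39 ± 0.21 (SE), did not pass (limma adjusted p = 0.372). miR-15a-5p had 156, 176 and 186 in zone 8 and 242, 130.4 and 264 in zone 1, with overlap, and a difference of -0.24 ± 0.25 (adjusted p = 0.670). miR-15b-5p had 46.6, 52.9 and 53.3 in zone 8 and 54.1, 41.7 and 54.8 in zone 1, and its difference was 0.03 ± 0.22 (adjusted p = 0.987). Of the 5 members 1, miR-195a-3p, was higher in zone 8, where 4.72% of all tested miRNAs were higher. It was undetected on every zone 1 array and entered the test through its arrays of zones 5 to 8. This count is therefore not support for a difference. In the moderated F test over the 8 zones 0 of 5 members passed in limma, against 5.31% of all tested miRNAs, and 1, miR-195a-3p, had an unadjusted p under 0.05.

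Zones 5 to 8 and zones 1 to 4 differed in how far the mice lay apart. The SD between mice of log2 signal, pooled over zones, was 0.084 in zones 5 to 8 and 0.411 in zones 1 to 4 for miR-15a-5p, a ratio of 4.89. That was the largest such ratio among the 198 miRNAs detected on all arrays, whose median SDs were 0.267 and 0.337 and whose median ratio was 1.23. miR-16-5p had SDs of 0.107 and 0.318, a ratio of 2.96 that was at percentile 92.9 of these miRNAs, and miR-15b-5p had 0.207 and 0.296, a ratio of 1.43 at percentile 60.6. These spreads are a description with 3 mice and were not tested. Zones 1 to 4 and zones 5 to 8 lay in different slide rows, so zone and slide row cannot be told apart in this comparison.

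A ratio of 2 members within an array does not depend on the scaling, and its change along the axis shows whether they follow unequal profiles. Its height has no meaning, since the probes differ. The log2 ratio of miR-15b-5p to miR-16-5p was -1.45, -1.47 and -1.55 in zone 8 of mice 1, 2 and 3, against -1.87, -1.91 and -1.96 in zone 1. The 2 zones were apart for this ratio alone among the 3 pairs compared, and how often other miRNA pairs part in this way was not counted. Over all zones the fitted change of this ratio was 0.27 log2 units, positive in 3 of 3 mice (0.25, 0.10 and 0.45), with a permutation p of 0.0287 and 0.0862 after adjustment over the 3 pairs compared (zone numbers shuffled within mice, 100000 draws, two-sided). Without mouse 2 it was 0.35 and passed (permutation adjusted p = 0.00298), without mouse 1 it was 0.27 (adjusted p = 0.159) and without mouse 3 it was 0.18 (adjusted p = 0.462).

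miR-15a-5p over miR-16-5p was the steadiest of the ratios. Its SD over 24 arrays was 0.140 log2 units, against 0.286 for miR-15a-5p over miR-15b-5p and 0.245 for miR-15b-5p over miR-16-5p. In zone 8 the ratio was 0.29, 0.26 and 0.26 in mice 1, 2 and 3, and in zone 1 it was 0.30, -0.26 and 0.31, so zone 1 of mouse 2 was the array that stood away. Its fitted change was 0.10 (permutation adjusted p = 0.171), with -0.09, 0.43 and -0.03 in the 3 mice, and that of miR-15a-5p over miR-15b-5p was -0.16 (permutation adjusted p = 0.171), with -0.34, 0.33 and -0.48. Mouse 2 thus ran opposite to the other mice for every ratio with miR-15a-5p. Without mouse 1 the ratio of miR-15a-5p to miR-16-5p changed by 0.20 (permutation adjusted p = 0.0324), against -0.059 without mouse 2 (adjusted p = 0.333) and 0.17 without mouse 3 (adjusted p = 0.335). That of miR-15a-5p to miR-15b-5p changed by -0.41 without mouse 2 (permutation adjusted p = 0.00012), by -0.075 without mouse 1 (adjusted p = 0.648) and by -0.0055 without mouse 3 (adjusted p = 0.972). Each of these values thus turns on which mice are included.

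**Figure D3:**
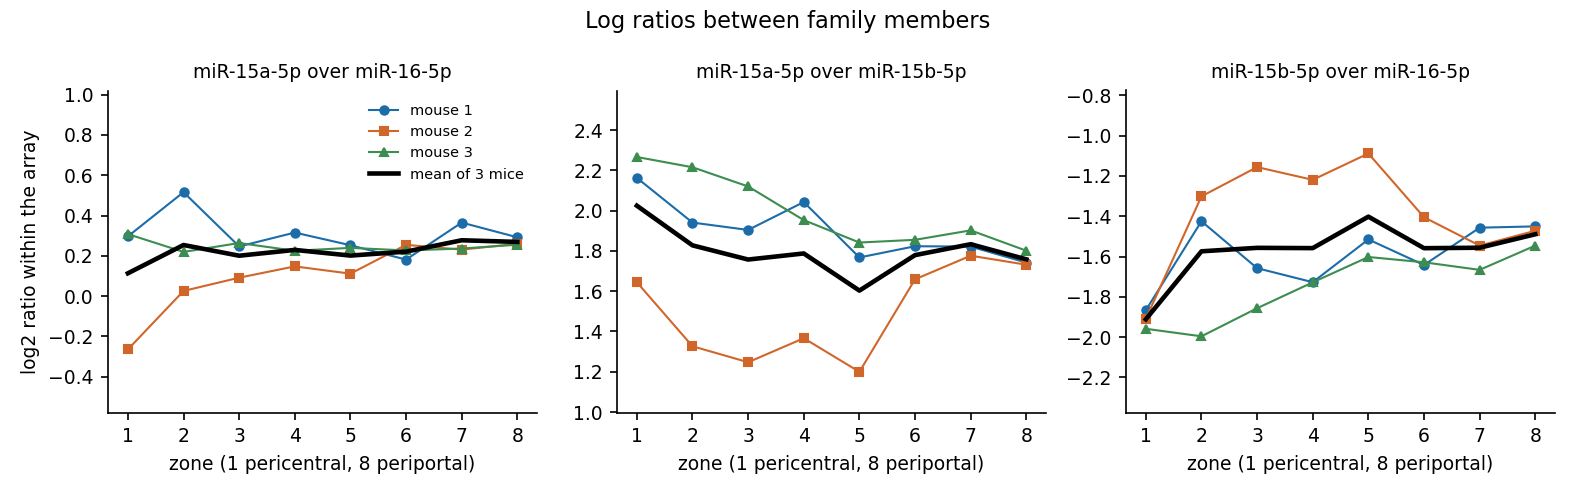
Log2 ratios of family members within each array against zone, by mouse, with the mean of the 3 mice in black. miR-15b-5p over miR-16-5p lies between -1.55 and -1.45 in zone 8 and between -1.96 and -1.87 in zone 1, and mouse 2 lies below the others for miR-15a-5p over miR-15b-5p in all 8 zones.

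mmu-miR-195a-5p, known for restraining the division of heart muscle cells after birth in the mouse, was dim and changed from mouse to mouse. In mouse 3 it was detected in all 8 zones, with scaled signals of 6.52, 5.19, 4.71, 3.14, 1.95, 1.99, 2.23 and 2.70 from zone 1 to zone 8. In mouse 2 it was detected in zones 2, 6, 7 and 8, at 2.40, 2.06, 2.40 and 2.33, and in mouse 1 in zones 1 and 8, at 4.99 and 2.30. The 5 highest values were thus those of zones 1 to 4 of mouse 3 and zone 1 of mouse 1. The error given for a single array was 24.2% of the signal at the median. Detection moved with the brightness of the arrays, taken as the 75th percentile before scaling. It was 66.7 to 96.1 units (median 76.9) on the 14 arrays with miR-195a-5p. On the 10 without it, it was 52.3 to 72.6 (median 58.4), so the ranges overlap. The dimmest array of mouse 3 had 66.7 units, against 52.3 in mouse 1 and 53.04 in mouse 2.

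Its fitted change along the axis was -0.48 ± 0.50 (SE, interval -1.51 to 0.56, limma adjusted p = 0.563), with undetected values raised to a floor of 1.12 units. Within mice it was -0.65 ± 0.62 (mouse 1), 0.83 ± 0.62 (mouse 2) and -1.61 ± 0.62 (mouse 3), a difference between slopes with limma adjusted p = 0.237. With a floor 4 times lower the fitted change was 0.077. The interval therefore covers changes of either sign.

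Between animals 1 of 5 members, miR-195a-5p, passed the test (limma, moderated F over mice with zone as a factor, adjusted p = 0.00903), where 54.3% of all tested miRNAs differed. The call rests on mouse 3, without which the adjusted p was 0.794, and on the scaling: with quantile normalization miR-195a-5p did not pass (adjusted p = 0.0674) while miR-15a-5p did (adjusted p = 0.0213). It was 1.13 ± 0.31 log2 units higher in mouse 3 than in mouse 1 (limma adjusted p = 0.0116), where 16.2% of all tested miRNAs were higher, and 1.01 ± 0.31 higher in mouse 3 than in mouse 2 (adjusted p = 0.0149). Both differences are set in part by the floor, since miR-195a-5p was undetected on 6 arrays of mouse 1 and 4 of mouse 2. With a floor 4 times lower the differences were 2.63 and 2.01. Arrays without miR-195a-5p were also dimmer at the median, and the part of brightness in these differences was not tested. With quantile normalization neither passed (limma adjusted p = 0.0804 and 0.0675). Nor did the difference from mouse 2 pass when arrays were scaled to their summed signal (limma adjusted p = 0.0507). Without the 4 arrays on which its neighbour miR-497a-5p was detected, the difference from mouse 2 was 0.45 and did not pass (limma adjusted p = 0.157). miR-15a-5p was 0.36 ± 0.13 higher in mouse 3 than in mouse 2 (limma adjusted p = 0.0356), where 20.4% of all tested miRNAs were higher, and this was 0.19 without those 4 arrays (adjusted p = 0.322). That call was also lost with the summed signal (limma adjusted p = 0.157) and in the fit without mouse 1 (adjusted p = 0.0903). miR-15a-5p, miR-15b-5p and miR-16-5p had adjusted p of 0.0694, 0.225 and 0.103 in the F test over mice.

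Since miR-195a-5p and miR-16-5p differ at 2 bases, the signal of the brighter miRNA was set beside the detection of the dimmer. On the 10 arrays where miR-195a-5p was not detected, miR-16-5p was present at 101 to 159.7 units, and on the 14 where it was detected, at 127 to 213. These ranges overlap, and the highest miR-16-5p signals lay on arrays where miR-195a-5p was detected. How far the probes share signal was not tested.

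mmu-miR-195a-3p, the arm with a different seed, gave a signal on 7 of the 12 portal-side arrays (zones 5 to 8) and on 1 of the 12 central-side arrays (zones 1 to 4). In zone 8 it was detected in all 3 mice, with scaled signals of 4.32, 5.74 and 2.59 in mice 1, 2 and 3. The remaining values were 2.52 in zone 4 of mouse 1, 2.25 and 2.33 in zones 6 and 7 of mouse 2, and 3.81 and 4.08 in zones 5 and 6 of mouse 3. No array of zones 1 to 3 gave a signal. In each mouse the fitted change was positive, at 1.04 ± 0.69 (mouse 1), 2.07 ± 0.69 (mouse 2) and 1.32 ± 0.69 (mouse 3, SE). These slopes rest on 2, 3 and 3 detected arrays in mice 1, 2 and 3, with all other values at the floor. Their shared sign thus restates where miR-195a-3p was detected.

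Over all arrays miR-195a-3p rose by 1.47 ± 0.38 log2 units (SE, interval 0.68 to 2.27, limma adjusted p = 0.00879). It entered the test through its portal-side arrays, so its call is not independent of the filter on detection. This fitted value also depends on the floor and is no measured fold: with a floor 4 times lower it was 3.25. Zone 8 against zone 1 gave 1.84 ± 0.49 (limma adjusted p = 0.0286), a call that was lost with quantile normalization (adjusted p = 0.102), without mouse 1 (0.155), without mouse 2 (0.338) and without the 4 arrays on which miR-497a-5p was detected (0.191, and 0.145 with mouse as a block). The lowest signal detected for any miRNA on a zone 1 array was 1.04 to 1.62 units. Set against this limit, zone 8 was 3.12-fold higher in the mean of log2 values over the 3 mice. In mouse 3, with 2.59 units in zone 8, the fold over this limit was smaller. The 3.12-fold value is a lower bound only if this limit holds for this probe, whose own lowest detected signal was 2.25. The zone 8 value of mouse 3 lies near that signal, so it does not show a difference in that mouse. Without mouse 2 the slope no longer passed (limma adjusted p = 0.150), and in a fit with mouse and slide row as terms its adjusted p was 0.496, at a fitted change of 1.51. In that fit with slide row 0 of all 339 tested miRNAs passed.

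The detection of miR-195a-3p also moved with the brightness of the arrays. The unscaled 75th percentile was 71.2 to 96.1 units (median 80.9) on the 8 arrays where it was detected and 52.3 to 92.1 (median 68.2) on the other 16. In mouse 1 the 2 brightest arrays and in mouse 2 the 3 brightest were those with miR-195a-3p, and in mouse 3 it was found on 3 of the 4 brightest, with zone 2 at 92.1 units the exception. With brightness as a term beside mouse the fitted change was 1.01 ± 0.34 (limma adjusted p = 0.0365). miR-195a-3p entered this fit too through its portal-side arrays, and its values on the other 16 arrays stand at the floor. This call is therefore not support for a difference. The endothelial miR-126a-3p was detected on 7 of the 8 arrays with miR-195a-3p and on 9 of the other 16. In mouse 3 both were found in zones 5, 6 and 8 and in no other zone, miR-126a-3p at 1.47 to 2.04 units, while in mouse 1 miR-126a-3p was present in all 8 zones at 4.08 to 11.4. The second endothelial marker, miR-126a-5p, was detected on no array. The part of these signals in the result was not tested further.

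The arms of miR-195a were found together on 7 arrays, miR-195a-5p alone on 7, miR-195a-3p alone on 1 and neither on 9. All 4 arrays with the highest miR-195a-5p signal lacked miR-195a-3p. In zones 5 to 8 of mouse 3 the detected values were 1.95 to 2.70 for miR-195a-5p, with miR-195a-3p missing in zone 7. Other 3p arms of the family gave no signal: miR-15a-3p, miR-15b-3p, miR-16-1-3p and miR-16-2-3p were detected on none of 24 arrays.

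Among 10 mature mouse miRNAs of the RefSeq table with the family seed, 5 were detected on any array, the 4 members with that seed and miR-497a-5p. miR-195b, miR-322-5p, miR-6342, miR-6353 and miR-6419 were detected on none. miR-497a-5p, the genomic neighbour of miR-195a, was detected at 2.94 units in zone 1 of mouse 1 and at 3.49, 3.21 and 2.48 in zones 1, 2 and 3 of mouse 3. These 4 arrays were also the 4 with the highest miR-195a-5p signal. They held 242, 264, 233 and 242 units of miR-15a-5p, the 4 highest of 24 arrays. The endothelial miR-126a-3p was not detected on the 3 of them from mouse 3 and had 6.74 units on the array from mouse 1, and its part in these signals was not tested.

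Exactly these 4 arrays, and no others, also gave a signal for 8 further miRNAs, a set named after its values were seen. All 8 lie on chromosome 12 between 109592888 and 109740574, in the imprinted Dlk1-Dio3 region: miR-127-3p, miR-136-5p, miR-154-5p, miR-154-3p, miR-299b-5p, miR-377-3p, miR-379-5p and miR-434-3p. Of them miR-127-3p was the brightest on the mouse 3 arrays in zones 1, 2 and 3, at 12.04, 10.7 and 8.11 units, and had 4.84 in zone 1 of mouse 1. In all, 18 miRNAs of the array were detected on 4 arrays, 9 of them on these 4. The fitted changes of miR-15a-5p, miR-195a-5p and miR-16-5p depended on these arrays. Without them miR-15a-5p had 0.16 (limma adjusted p = 0.556), miR-195a-5p 0.86 (adjusted p = 0.118) and miR-16-5p -0.053. miR-195a-3p was still past the slope test, a call that is again not independent of the filter on detection.

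miR-497b, whose hairpin overlaps that of miR-497a on the opposite strand, had another pattern again. It was detected on all 8 arrays of mouse 2, at 12.02, 9.25, 11.9, 16.5, 9.19, 13.7, 4.18 and 5.39 units from zone 1 to zone 8, and on none of mice 1 and 3. In all 8 miRNAs were detected on every array of mouse 2 and on no other array, so mouse 2 or its slide stands apart for this signal. miR-497a-3p, miR-322-3p, miR-503-5p and miR-503-3p were not detected on any array.

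**Figure D4:**
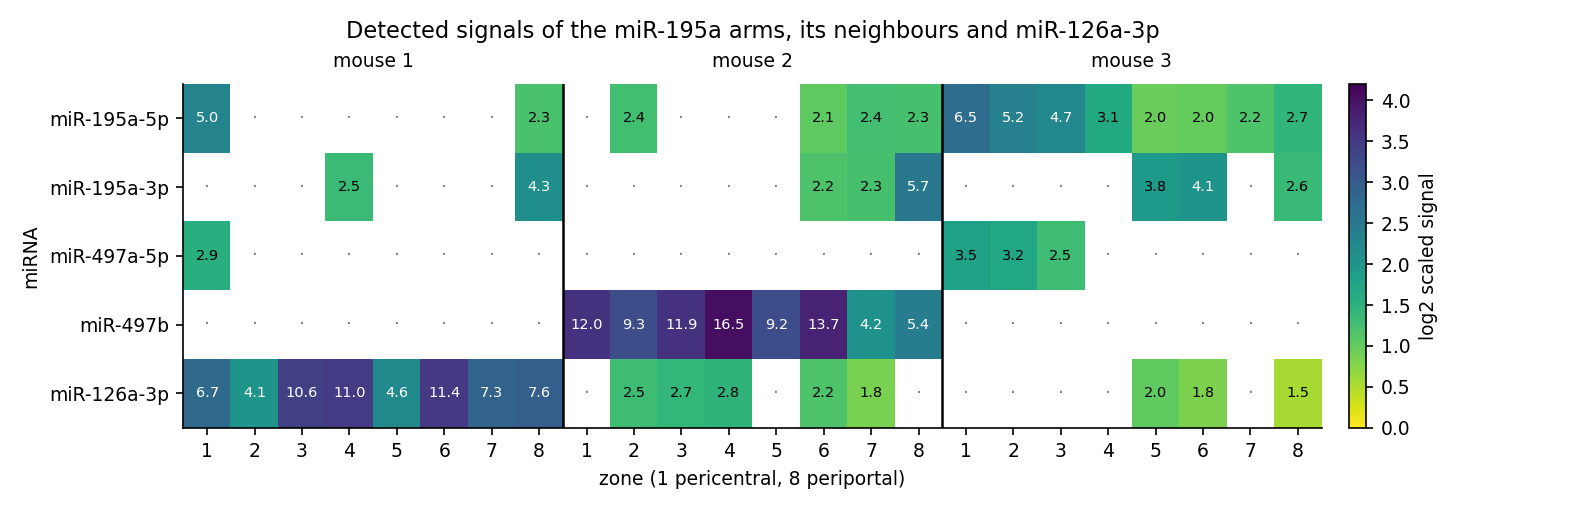
Scaled signal of both miR-195a arms, miR-497a-5p, miR-497b and the endothelial miR-126a-3p on each of the 24 arrays, by mouse and zone, with dots for arrays without detection. miR-497a-5p is found on 4 arrays that also hold the highest miR-195a-5p signals, miR-195a-3p on 7 arrays of zones 5 to 8 and 1 of zones 1 to 4, and miR-497b on the 8 arrays of mouse 2 alone.

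The miRNAs most like the members were sought by Pearson correlation of log2 signal over the 24 arrays, which share mice, slides and scaling, so these values are a description. For miR-15a-5p they were miR-27b-3p (0.931), miR-106b-5p (0.903) and miR-20b-5p (0.898). For miR-16-5p they were miR-27b-3p (0.900), miR-20a-5p (0.874) and miR-20b-5p (0.858), and for miR-15b-5p let-7d-5p (0.842), miR-103-3p (0.837) and miR-365-3p (0.834). miR-15a-5p and miR-16-5p correlated at 0.864 with each other, whereas miR-15b-5p correlated at 0.388 with miR-15a-5p and at 0.487 with miR-16-5p. With the mean of each mouse removed the value of miR-15a-5p with miR-27b-3p was 0.984 and that of miR-15a-5p with miR-15b-5p was 0.676.

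Other miRNAs known for restraining the cell cycle were counted beside the family, from a list of 23 that includes let-7, miR-26, miR-29, miR-34 and miR-101 members. The list also holds miR-122-5p, miR-192-5p and miR-194-5p, which are among the hepatocyte markers above. It was chosen with earlier results of these data known, so its counts are a description and not support for a difference. Of these, 18 were detected on every array, and the other 5 (miR-34b-5p, miR-34c-5p, miR-449a-5p, miR-215-5p and miR-503-5p) on none. Of the 18, 4 rose towards the portal side (all tested miRNAs, 10.3%), 0 fell (6.49%) and 14 did not pass. Their median fitted change was 0.28, against -0.10 over all tested miRNAs and -0.19 over the miRNAs detected on all 24 arrays. miR-122-5p, the dominant hepatocyte miRNA, rose by 0.72 ± 0.13 (SE), miR-101a-3p by 0.68 ± 0.17, miR-26a-5p by 0.62 ± 0.13 and let-7g-5p by 0.58 ± 0.17 (limma adjusted p = 0.0166 at the highest). With mouse as a block 5 rose, and with mouse and slide row as terms 0 of the 18 and 0 of all 339 passed in limma, where 37 of the 339 had an unadjusted p under 0.05 and the median fitted change of the 18 was 0.047, against 0.10 over all. miR-15a-5p, miR-15b-5p and miR-16-5p, all with values below 0, were not among the miRNAs that rose.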

How the data were processed

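Total RNA of 24 sorted hepatocyte populations was labelled with Cy3 and hybridised to 1-colour Agilent microRNA arrays (labels' protocols). The authors deposited intensity values for each miRNA with their errors; the submitters' processing notes name Agilent Feature Extraction, with no version given in the sources used here. A deposited detection call is 1 or 0, and undetected rows hold 0.1, per the file headers and values. Groups and mouse numbers came from the labels, and slide positions from the file names.

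After removal of 21 control sequences, each array's signals were divided by the 75th percentile of 198 miRNAs detected everywhere, multiplied by the mean percentile, raised to a floor of 1.12 and taken to log2. All 5 members were among the 339 miRNAs detected on at least 6 arrays. Only miR-195a-5p and miR-195a-3p hold values at the floor, and miR-195a-3p passed that filter through the zones where it was detected, so its count is not support for a difference. Fits used limma 3.58.1 in R 4.3.3, without a block, and were tested on simulated data. Tests were two-sided. Alternatives were other scalings, filters, a lower floor, eBayes with trend and robust, mouse as a block, slide row, and leaving out each mouse. Leaving out 4 arrays, array brightness as a term and 1 slope per mouse were chosen after seeing the data. All 5 members matched the RefSeq table by name. Every member and the other miRNAs with the family seed were named, with the 3 most correlated miRNAs of each member detected everywhere. The members and lists were chosen with earlier results of these data known. The number of a mouse pairs its arrays, since all 8 of its zones come from 1 animal, and deviations from zone means correlated at a median of 0.610 within a mouse. Plots were made in Python 3.11.15 with matplotlib 3.10.9.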

Additional observations from a re-analysis of the deposited data

How the results depend on the processing

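The number of members past the slope test was 1, and 0 among the 3 members detected on all 24 arrays and with slide row beside the replicate block. In zone 8 against zone 1 it was 1, and 0 with quantile normalization, among miRNAs detected on all 24 arrays, and without the 4 arrays holding miR-497a-5p, with or without the mouse block, and 0 to 1 when leaving out a mouse. In the F test over mice it was 1, against 4 without scaling, 3 with the summed signal, 2 with trend and robust, 0 among miRNAs detected on all 24 arrays, and 0 to 1 when leaving out a mouse. Among ratios it was 0, and 0 to 2 when leaving out a mouse. In the F test over zones it was 0 under every alternative. Mouse as a block changed no call of a member in the slope, zone 8 against zone 1 or F tests over zones, where the slope count with the block stayed at 1.

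Several values that had not passed the test changed sign, and some of them passed with another scaling. The slope of miR-15a-5p was 0.0047 without scaling, 0.16 without the 4 arrays, 0.091 with the mouse block besides, and 0.30 in mouse 2 alone. That of miR-15b-5p was 0.17 without scaling, 0.11 with the summed signal and 0.027 without the 4 arrays in the block. That of miR-195a-5p was 0.077 with the lower floor, -1.13 to 0.090 when leaving out a mouse (0.090 without mouse 3), 0.86 without the 4 arrays, 0.69 with the block besides, and 0.83 in mouse 2 alone. The zone 8 against zone 1 value of miR-15a-5p was 0.13 without scaling, 0.40 without the 4 arrays and 0.32 with the block. For miR-15b-5p it was -0.0021 with quantile normalization and -0.13 to 0.15 when leaving out a mouse (-0.13 without mouse 2), and for miR-195a-5p 0.22 with the lower floor, 1.12 without the 4 arrays and 1.12 with the block. Mouse 2 minus mouse 1 turned with the summed signal for miR-15b-5p (-0.045) and miR-16-5p (-0.25), and with quantile normalization for miR-16-5p (-0.065). Mouse 3 minus mouse 1 turned with the summed signal for miR-15a-5p (-0.24), miR-15b-5p (-0.33) and miR-16-5p (-0.18), and with quantile normalization for miR-15b-5p (-0.046). Mouse 3 minus mouse 2 was 0.14 for miR-15b-5p without scaling. The ratio of miR-15a-5p to miR-16-5p changed by -0.059 to 0.20 when leaving out a mouse (-0.059 without mouse 2), -0.087 in mouse 1 alone and -0.032 in mouse 3 alone, and that of miR-15a-5p to miR-15b-5p by 0.33 in mouse 2 alone. With the summed signal the reversed values of miR-15b-5p in mouse 3 minus mouse 1 (limma adjusted p = 0.0159) and of miR-16-5p in mouse 2 minus mouse 1 (adjusted p = 0.0387) passed as lower, whereas without scaling miR-15b-5p in mouse 3 minus mouse 1 passed as higher (0.47, adjusted p = 0.0196), so the calls between mice for these members go opposite ways by scaling. In the F test over mice the 1 member past the threshold was miR-15a-5p with quantile normalization and miR-195a-5p with the percentile scaling. The cause was not tested. Over all tested miRNAs the median change was -0.10, against 0.10 without scaling and 0.04 with the summed signal. The signals of both miR-195a arms lay near the detection limit, which limits every statement on them.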
